A study of Drosophila melanogaster with 34 samples.

Results

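Glutathione S-transferases (GSTs) are enzymes that join the tripeptide glutathione to reactive, electron-poor molecules or use it to reduce them. The genes described here are those whose probe set carries a single annotated symbol starting with GstD, GstE, GstO, GstS, GstT or GstZ, and there are 36 such probe sets for 34 genes, of 18769 probe sets on the array. They comprise 11 delta genes, 13 epsilon genes, 3 omega genes, 4 theta genes, 2 zeta genes and the only sigma gene, GstS1. GstE8 was not analysed here.

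In insects the delta and epsilon classes are large, arranged in gene clusters and known for the detoxification of insecticides, plant compounds and products of lipid peroxidation. Many delta and epsilon genes are induced through the transcription factor CncC, which Keap1 holds back when electrophiles are absent, and GstD1 is the member most used as a reporter of that pathway in Drosophila. The other classes have wider roles. The sigma enzyme GstS1 conjugates the lipid aldehyde 4-hydroxynonenal, zeta enzymes carry the maleylacetoacetate isomerase step of tyrosine breakdown, and omega enzymes reduce substrates with glutathione rather than conjugate it. GstE14, also called noppera-bo, acts in the ecdysteroid-producing gland. Larvae oxidise ethanol mainly through alcohol dehydrogenase, which yields the electrophile acetaldehyde.

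The GST genes were measured in Drosophila melanogaster larvae of 6 laboratory populations bred from a single outbred base, 2 for each selection regime. For over 300 generations the ethanol regime (E1, E2) was kept in vials of food holding 12% ethanol, the variable regime (M1, M2) in a mixture of vials with and without ethanol that were pooled each generation, and the control regime (R1, R2) on standard food. Flies of all populations then spent at least 2 generations on standard food at 25 °C, and their eggs were covered for 15 hours with 18% ethanol, about 12% after mixing with the laying medium, or with distilled water. Each array holds the pooled RNA of 50 to 200 newly hatched first-instar larvae. The extractions formed 3 blocks, each done on its own day, and are called days 1, 2 and 5 here after the last number of each title, which is an assumed reading of that number. There were 6 ethanol-exposed and 6 water-exposed arrays each for the ethanol and control regimes and 5 of each for the variable regime. That makes 17 arrays per exposure.

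Values are log2 expression, and array medians lay between 3.89 and 4.02, so a value near 4 is close to background. A probe set was tested if it reached 4 on at least 5 arrays, as 9729 did. Of the GST probe sets 33 met this, for 32 genes (10 delta, 13 epsilon and 9 of other classes), and 30 of them reached 4 on every array. GstD6 (mean 2.69, highest value 4.77), GstO1 (mean 2.42) and a second probe set of GstE9 (mean 3.09) were not tested. No gene entered through 1 exposure alone, but GstD5 reached 4 on 11 arrays of E2, M2 and R2 against 3 of E1, M1 and R1, and GstE14 on 4 against 13. Delta and epsilon genes have close paralogs, and the files do not show how far a probe set cross-hybridises between them.

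The day 5 arrays of the ethanol and variable regimes went against their labels. Over the 9729 probe sets, the difference between E1 and M1 on day 5 correlated at -0.619 with that on days 1 and 2, and the difference between E2 and M2 at -0.31. For the other 7 pairs examined, which include R2 with R1, the correlation lay between 0.308 and 0.575. Counts of calls for regimes and populations are therefore given with and without day 5, as are the values of some genes compared between regimes. Other values of single genes, within regimes and between populations, are over all days unless stated. The exposure comparison averages over all 6 populations.

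The first question is how GST transcripts differ between larvae from ethanol-soaked and water-soaked eggs. The family split. GstE9 and GstE7 of the epsilon class and GstT4 of the theta class rose by 0.76 to 0.99 on the log2 scale, and GstD4, GstD10 and GstD3 of the delta class fell by 0.82 to 1.25. Across the 32 genes 11 were higher, 9 were lower and 12 did not pass limma's test at an adjusted p under 0.05. That is 62.5% of the genes, against 31.2% of all 9729 probe sets tested (15.2% higher and 16.0% lower). The median size of the change was 0.21 for the GST genes and 0.11 for all probe sets.

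**Figure D1:**
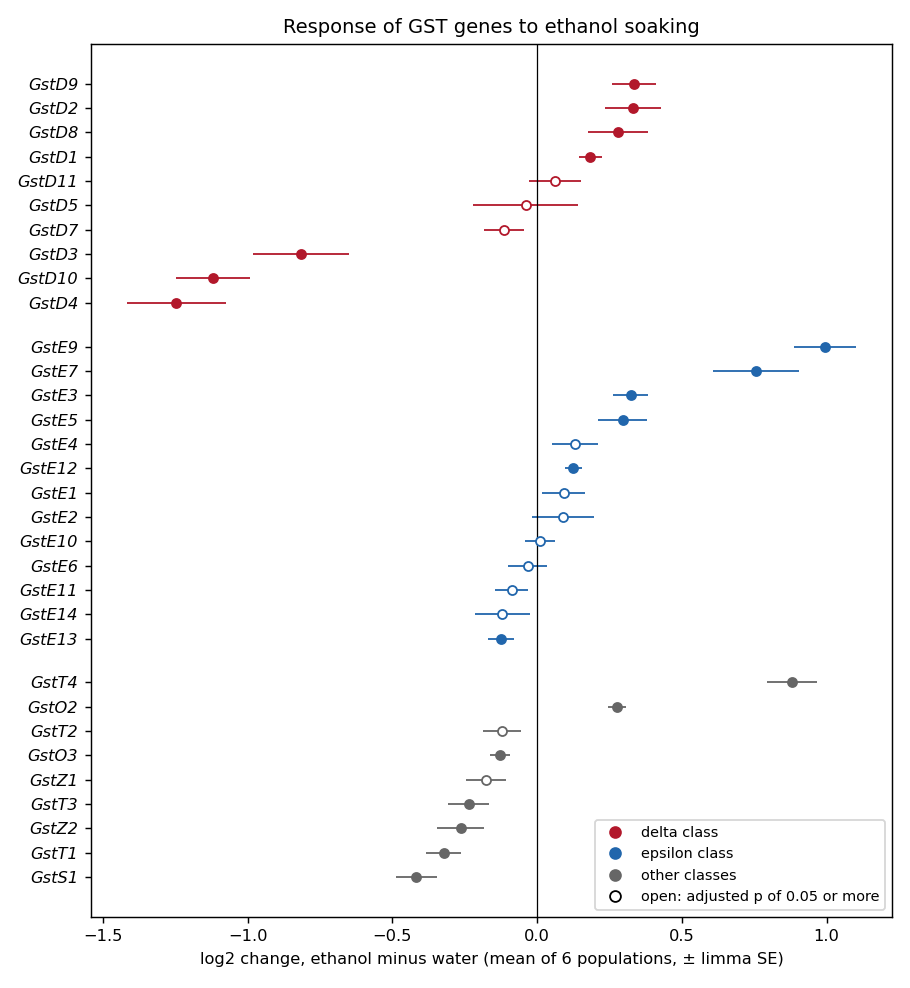
Log2 change (ethanol minus water, mean of 6 populations) of 32 GST genes, by class, with limma standard errors as bars; filled points passed at an adjusted p under 0.05 and open points did not. GstE9, GstT4 and GstE7 lie farthest to the right at 0.99, 0.88 and 0.76, and GstD4, GstD10 and GstD3 farthest to the left at -1.25, -1.12 and -0.82.

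In the epsilon class 5 of 13 genes were higher, 1 was lower and the median change was 0.09. GstE9 ranged from 10.17 over a median of 11.32 to 11.79 on ethanol arrays, and from 9.07 over a median of 10.26 to 10.84 on water arrays. The lowest ethanol values thus overlapped the highest water values. Means were 11.12 ± 0.50 in ethanol and 10.13 ± 0.50 in water (SD, n = 17 each), and the fitted change was 0.99 ± 0.11 (SE), or 1.99-fold, at limma adjusted p = 7.118e-08. GstE9 was higher in ethanol in all 16 pairs of arrays that share population and day, by 0.47 to 1.56.

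GstE7 ranged from 7.55 over a median of 8.36 to 9.88 in ethanol, and from 6.32 over a median of 7.71 to 9.33 in water. The exposures overlapped widely, yet ethanol was the higher of each of the 16 pairs, by 0.27 to 1.51. The change was 0.76 ± 0.15, 1.69-fold, at limma adjusted p = 0.0002974. GstE3 rose by 0.32 ± 0.06 (means 11.31 ± 0.38 in ethanol and 10.97 ± 0.42 in water; SD, n = 17 each; limma adjusted p = 0.0001587), again in 16 of 16 pairs, although its smallest pair difference was 0.02. GstE5 rose by 0.30 and GstE12 by 0.13, while GstE13 fell by 0.12.

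Of the other 7 epsilon genes, GstE4, GstE1, GstE2 and GstE10 changed by 0.13, 0.09, 0.09 and 0.01, and GstE6, GstE11 and GstE14 by -0.03, -0.09 and -0.12. Their 95% intervals lay between -0.32 and 0.31. GstE14, with means of 3.99 in ethanol and 4.07 in water, sat at the background level in both exposures.

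The delta class moved in both directions, with 4 of 10 genes higher, 3 lower and a median change of 0.01. GstD4 ranged from 3.60 over a median of 5.14 to 7.23 in ethanol, and from 4.49 over a median of 6.14 to 7.98 in water. Ethanol was the lower in 16 of 16 pairs, by 0.21 to 2.08, although the groups overlapped. The fitted change was -1.25 ± 0.17, a 2.37-fold decrease at limma adjusted p = 2.581e-06. Only 13 of 17 ethanol arrays reached 4, against 17 of 17 water arrays, so part of its range lies at background.

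GstD10, which lies well above background, ranged from 7.73 over a median of 9.09 to 10.38 in ethanol, and from 8.57 over a median of 10.16 to 11.29 in water. It was lower in ethanol in 16 of 16 pairs, by 0.42 to 1.75, with a change of -1.12 ± 0.13, a 2.17-fold decrease at limma adjusted p = 1.884e-07. GstD4 and GstD10 were the 2 GST genes that passed with a change above 2-fold. GstD3 ranged from 4.74 over a median of 5.65 to 7.0 in ethanol and from 5.30 over a median of 6.27 to 8.32 in water. Its change was -0.82 ± 0.17 (limma adjusted p = 0.0004534), and 13 of 16 pairs were lower.

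The delta genes that rose did so by less. GstD9 averaged 7.78 ± 0.56 in ethanol and 7.43 ± 0.43 in water (SD, n = 17 each), a change of 0.33 ± 0.08 at limma adjusted p = 0.001239. GstD2 averaged 9.14 ± 0.48 in ethanol and 8.84 ± 0.42 in water (SD, n = 17 each), a change of 0.33 ± 0.10 at limma adjusted p = 0.01065. GstD8 rose by 0.28, and GstD1, the CncC reporter gene, by 0.18 ± 0.04, with 15 of 16 pairs higher. GstD7, GstD5 and GstD11 did not pass, at -0.11, -0.04 and 0.06.

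**Figure D2:**
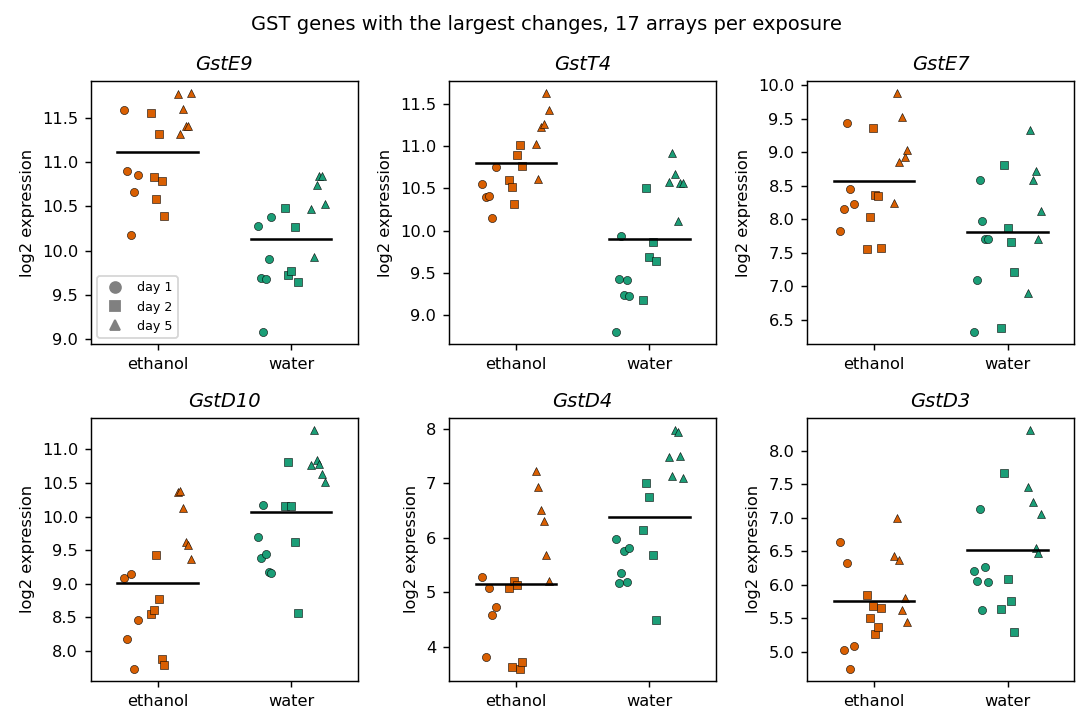
Log2 expression of GstE9, GstT4, GstE7, GstD10, GstD4 and GstD3 on each of 17 ethanol and 17 water arrays, with the mean as a line and the extraction day as the symbol. The 3 genes of the upper row have the higher mean in ethanol and the 3 of the lower row in water, and the exposures overlap in each gene.

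Among the other 9 genes 2 were higher, 5 were lower and the median change was -0.18. GstT4 ranged from 10.15 over a median of 10.76 to 11.63 in ethanol, and from 8.80 over a median of 9.87 to 10.92 in water. Ethanol was the higher in 14 of 16 pairs. The change was 0.88 ± 0.09, 1.84-fold, at limma adjusted p = 1.492e-08, the smallest p of the family. The theta genes GstT1 and GstT3 moved the other way. GstT1 fell by 0.32 ± 0.06 to a mean of 9.79 ± 0.32 in ethanol, against 10.15 ± 0.23 in water (SD, n = 17 each; limma adjusted p = 0.0001524). GstT3 fell by 0.24, and GstT2 did not pass at -0.12.

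GstS1 ranged from 9.95 over a median of 10.42 to 10.75 in ethanol, and from 10.45 over a median of 10.71 to 11.41 in water. It changed by -0.42 ± 0.07 (limma adjusted p = 4.913e-05) and was lower in 15 of 16 pairs. GstZ2 averaged 9.17 ± 0.26 in ethanol and 9.42 ± 0.32 in water (SD, n = 17 each), a change of -0.26 ± 0.08 at limma adjusted p = 0.01384. GstZ1 did not pass, at -0.18 (limma adjusted p = 0.0581). The omega genes diverged, GstO2 with a rise of 0.27 in 16 of 16 pairs and GstO3 with a fall of 0.13. The second probe set of GstO2, whose mean was 9.61 in ethanol and 8.99 in water, gave a larger rise of 0.61 ± 0.08 (limma adjusted p = 1.788e-06).

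All 20 called genes had 1 direction within days 1, 2 and 5, whose arrays also gave the calls, so this is no separate test. Of all 32 genes, called or not, 19 had 1 direction in 6 of 6 populations, as did 30.1% of all probe sets tested. GstD10, GstD4, GstE3, GstE7, GstE9 and GstO2 kept 1 direction in all 16 pairs, a property of 5.85% of probe sets. No GST gene had all ethanol arrays apart from all water arrays, which held for 0.463% of probe sets. The calls of GstD10, GstD4, GstE7, GstE9, GstO2 and GstT4 held in every setting tried. Those of GstD8 and GstE13 were lost in 28 and 26 of 54 settings. The calls of GstO3, GstZ2, GstE5, GstT3, GstE12 and GstD2 were lost in 8, 7, 5, 5, 4 and 4, and the remaining ones in 1 to 3. With population differences as replicates GstE12, GstE13, GstO3 and GstZ2 no longer passed. Without day 5 the count was 16 (28.5% of all probe sets), with 9 higher and 7 lower.

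In the delta cluster some genes rose and others fell, and in the epsilon cluster genes rose or did not pass. The order of genes was taken from the RefSeq gene table of the Release 6 plus ISO1 MT assembly, and no coordinates are printed, since no source used here names the build of the array annotation. Along the delta cluster the changes ran GstD10 -1.12, GstD9 0.33, GstD1 0.18, GstD2 0.33, GstD3 -0.82, GstD4 -1.25, GstD5 -0.04, then GstD6 without a value, GstD7 -0.11, GstD8 0.28 and GstD11 0.06. GstD10, at 1 end, and the adjacent genes GstD3 and GstD4 thus fell, and GstD9, GstD1 and GstD2 between them rose. Along the epsilon cluster they ran GstE10 0.01, GstE1 0.09, GstE2 0.09, GstE3 0.32, GstE4 0.13, GstE5 0.30, GstE6 -0.03, GstE7 0.76, then GstE8 without a value, and GstE9 0.99. The largest epsilon changes lay at the GstE9 end. GstE11, GstE12, GstE13 and GstE14 lie outside that cluster.

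**Figure D3:**
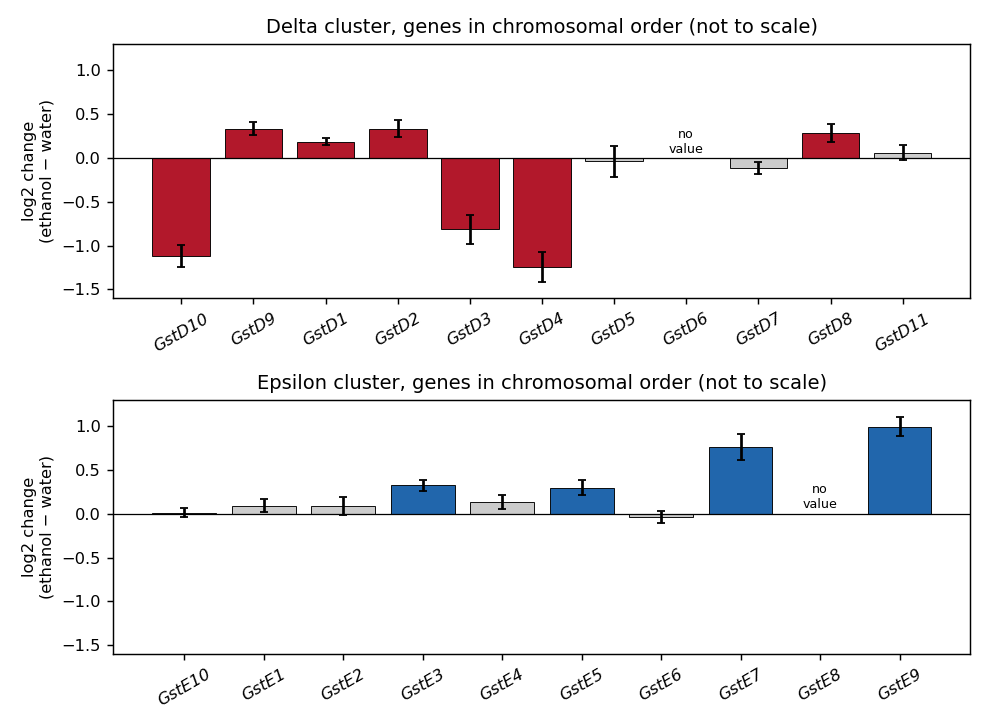
Log2 change (ethanol minus water) with its limma standard error for each gene of the delta and epsilon clusters, in the order of the RefSeq table and not to scale; coloured bars passed at an adjusted p under 0.05 and grey bars did not. The delta cluster alternates between decreases at GstD10, GstD3 and GstD4 and increases at GstD9, GstD1, GstD2 and GstD8, and the epsilon cluster rises to 0.99 at GstE9.

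Other genes of glutathione metabolism and of the CncC pathway were read from a list of 25, of which 17 were tested. After ethanol 2 were higher and 4 were lower, with a median change of -0.02. The share called, 35.3%, was near the 31.2% of all probe sets, so the 6 genes are given as values and not as a change of the pathway. Keap1, the inhibitor of CncC, rose by 0.36 ± 0.05, and Hr96, a nuclear receptor of the xenobiotic response, rose by 0.18 ± 0.06. Cat, the catalase gene, fell by 0.65 ± 0.08 and Mgstl, a microsomal GST-like gene outside the 6 classes, fell by 0.20 ± 0.05. The 2 others that were lower are Ggt-1, which starts the breakdown of glutathione, and eEF1gamma, a translation factor with a GST-like domain.

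Markers of larval tissues were read in the same comparison, in which 31.2% of all probe sets were called, and in whole larvae fewer cells of a type cannot be told apart from less RNA per cell. Of 10 tested haemocyte markers 6 (60.0%) were lower and 0 higher, and the summed log2 level of the 11 measured ran from 75.1 to 84.5 over ethanol arrays and from 79.7 to 89.2 over water arrays. Of 9 tested midgut markers 3 (33.3%, near the share of all probe sets) were lower and 0 higher (sum of 10, 97.2 to 106 in ethanol and 101 to 107 in water). Of 7 Malpighian tubule markers 1 (14.3%, below that share) was lower (64.3 to 67.2 in ethanol and 64.2 to 67.2 in water), and of 4 tested fat body markers 2 were higher (sum of 6, 47.8 to 50.0 in ethanol and 45.5 to 48.2 in water). Of 5 tested embryonic patterning genes 2 were higher and 1 lower (sum of 8, 40.4 to 45.4 in ethanol and 42.3 to 45.6 in water). The 9 ovary and egg shell markers were at background on all arrays, with 0 tested, and of 2 tested male germ line genes 1 was higher. The part of these tissues in the GST changes was not tested.

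The same response was then read within each regime. In ethanol-regime larvae 9 of 32 GST genes were called, 5 higher and 4 lower, against 8.43% of all probe sets (4.55% higher and 3.88% lower). In variable-regime larvae 6 were called, 3 in each direction, against 6.84% of all (3.49% higher and 3.34% lower). In control larvae 12 were called, 7 higher and 5 lower, against 18.1% of all (7.96% higher and 10.1% lower). GstE9, GstT4, GstO2, GstD4 and GstD10 were called in all 3 regimes. GstE9 changed by 0.88, 0.97 and 1.13, GstT4 by 0.73, 0.77 and 1.15, GstD4 by -1.21, -1.45 and -1.07, and GstD10 by -0.96, -1.24 and -1.15 in the ethanol, variable and control regimes. GstO2 changed by 0.28, 0.27 and 0.28.

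GstD3 (-0.98) and GstD1 (0.23) were called in the ethanol regime, GstE12 and GstT1 in the ethanol and control regimes, and GstS1 (-0.54 and -0.38) in the variable and control regimes. GstE7 (0.96), GstE3, GstD9 and GstO3 were called in control larvae. Whether such genes respond differently between regimes is the question of the interaction below. Without day 5 the counts were 8, 5 and 9 in the ethanol, variable and control regimes (5.7%, 4.22% and 16.0% of all probe sets), and without day 2 they were 4, 2 and 6 (2.51%, 1.88% and 7.45%). They also rest on single populations: the ethanol regime had 2 calls without E2, the variable regime 1 without M2 and 3 without M1, and the control regime 5 without R1 and 7 without R2.

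Single populations filled in the range of the response. GstE9 changed by 0.83 in E2, 0.94 in E1, 0.62 in M2, 1.31 in M1, 1.04 in R2 and 1.23 in R1. GstT4 changed by 1.18 in E2 and 0.28 in E1, by 1.15 in M2 and 0.38 in M1, and by 1.09 in R2 and 1.21 in R1. Its response was thus small in E1 and M1 beside the other 4 populations. The value of M1 rests on day 5, whose labels are in doubt, since without that day the changes were 1.33 in E2, 0.14 in E1, 1.22 in M2, 0.88 in M1, 1.06 in R2 and 1.59 in R1. M1 has 2 pairs of arrays in all, and 1 of them is from day 5. On the E1 arrays of day 2 GstT4 stood at 10.32 in ethanol and 10.51 in water, and on the M1 arrays of day 5 at 10.61 in ethanol and 10.92 in water, the 2 pairs in which ethanol was the lower.

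The difference in response between sister populations was fitted as a comparison added after seeing the data. For GstT4 it was 0.90 ± 0.29 for E2 minus E1 and 0.77 ± 0.32 for M2 minus M1, and neither passed (limma adjusted p = 0.9985 and 0.9963). Without day 5 the differences were 1.19 ± 0.24 and 0.34 ± 0.29 (limma adjusted p = 0.2505 and 0.9633). No GST gene and 0 of 9729 probe sets passed in any of the 3 pairs, although 3.83%, 3.37% and 4.70% had an unadjusted p under 0.05 in the E, M and R pairs. For the delta class the median difference in response was 0.04 for E2 minus E1, -0.10 for M2 minus M1 and -0.45 for R2 minus R1, and without day 5 it was 0.07, -0.02 and -0.49.

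The second question is whether selection changed the level of GST transcripts. With the population as the replicate (2 per regime) no GST gene differed at an adjusted p under 0.05 between regimes, nor did any of the 9729 probe sets. At an unadjusted p under 0.05, limma had 3 GST genes for the ethanol against the control regime (9.51% of all probe sets), 4 for the variable against the control regime (7.40%) and 0 for the ethanol against the variable regime (1.32%). With single arrays taken as replicates, which share populations, the counts were 9 for ethanol against control (3 higher, 6 lower) and 7 for variable against control (1 higher, 6 lower). The shares of all probe sets in that setting were 12.4% (6.77% higher, 5.59% lower) and 7.33% (4.09% higher, 3.24% lower). Without day 5 each of the 3 comparisons again had 0 GST genes.

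GstE1 and GstE6, both in the epsilon cluster, had the smallest p-values and moved in opposite directions. GstE1 averaged 11.22 in E2, 11.08 in E1, 11.16 in M2, 10.93 in M1, 10.79 in R2 and 10.58 in R1. Both control populations were thus the lowest. The difference was 0.46 ± 0.12 for ethanol minus control (limma adjusted p = 0.4799) and 0.36 ± 0.12 for variable minus control (limma adjusted p = 0.6701). Without day 5 the differences were 0.58 ± 0.14 and 0.30 ± 0.14, and M1 at 10.66 was then level with R2 at 10.68.

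GstE6 averaged 9.52 in E2, 9.85 in E1, 9.52 in M2, 9.74 in M1, 10.11 in R2 and 10.10 in R1, with both control populations the highest. It differed by -0.42 ± 0.13 for ethanol minus control (limma adjusted p = 0.4799) and by -0.53 ± 0.13 for variable minus control (limma adjusted p = 0.6649). Without day 5 these were -0.52 ± 0.16 and -0.69 ± 0.16, and the control populations remained the highest. Neither gene was called in the exposure comparison, at 0.09 for GstE1 and -0.03 for GstE6. The 2 comparisons share the control populations.

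Of the genes that responded to exposure, GstT4 was higher by 0.28 ± 0.09 in the ethanol than in the control regime, with a 95% interval of 0.04 to 0.52 and limma adjusted p = 0.4799. GstE9 differed by -0.36 (95% interval -0.82 to 0.10), GstE7 by 0.62 (-0.66 to 1.89), GstD4 by -0.46 (-1.29 to 0.37) and GstD10 by -0.06 (-1.06 to 0.93). GstS1 differed by 0.04, with a 95% interval of -0.20 to 0.27. These intervals rest on 2 populations per regime, and for GstE7 and GstD4 they include changes as large as the response to ethanol itself. Without day 5 the differences were 0.31 for GstT4 (-0.01 to 0.63), -0.57 for GstE9 (-1.13 to -0.0004), 0.77 for GstE7 (-0.56 to 2.10), -0.41 for GstD4 (-1.16 to 0.34) and -0.01 for GstD10 (-1.08 to 1.07), and none passed after adjustment. For the ethanol against the variable regime the smallest p-values were those of GstE11 (0.15 ± 0.07) and GstD11 (0.19 ± 0.10), each at limma adjusted p = 0.9998.

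The regimes were also compared in their response to ethanol, with each population's ethanol-minus-water difference as 1 value. For the ethanol against the control regime 0 GST genes and 0 of 9729 probe sets were called. At an unadjusted p under 0.05 there were 0 GST genes as well, against 4.08% of all probe sets. For the variable against the control regime 0 GST genes and 0 of 9729 probe sets were called too. At an unadjusted p under 0.05 the GST count was again 0, against 5.48%. The smallest p-values were those of GstE10 (0.29 ± 0.15) and GstO3 (0.19 ± 0.11) for ethanol minus control, each at limma adjusted p = 0.9997. For variable minus control they were those of GstD9 (-0.35 ± 0.17, limma adjusted p = 0.9119) and GstE2 (0.21 ± 0.13, limma adjusted p = 0.9426). The response of GstE9 differed by -0.25 between the ethanol and control regimes, with a 95% interval of -0.81 to 0.31, and that of GstD10 by 0.19 (-0.35 to 0.72). Without day 5 they differed by -0.44 (-0.98 to 0.11) and 0.35 (-0.40 to 1.10).

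The third comparison sets the 2 populations of a regime against each other, and here GST genes differed. Between E2 and E1, 13 of 32 genes were called (40.6%, against 11.0% of all probe sets), 1 higher and 12 lower in E2. Of all probe sets 4.96% were higher and 6.04% lower. The delta class contributed 1 higher and 5 lower, the epsilon class 5 lower and the others 2 lower. The median difference was -0.24 for the GST genes and -0.003 for all probe sets. GstD5 and GstE14 entered the test mainly through the populations where they are high. Among probe sets with a mean of at least 6, which leaves both out, 10 of 28 GST genes were called, 0 higher and 10 lower, against 10.1% of all. The calls of all 12 lower genes were lost without day 2, and the count was then 1, GstD5 (1.84% of all probe sets). Without day 5 there were 15 (12.4%) and without day 1 there were 9 (4.72%). Without day 2 all 13 genes kept their direction, and their median size was 0.52, against 0.83 over all days. Within day 1 alone and within day 5 alone 1 gene was called, GstD5 each time. Within day 2 alone 13 were called, but not GstD3 and GstD5, so these are not the same 13 genes. These single-day counts stand without the share of all probe sets, which also changed with the setting. They thus do not describe the GST genes alone. Of the 13 genes called over all days, 12 kept their direction on all 3 days, whose arrays also gave the calls.

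**Figure D4:**
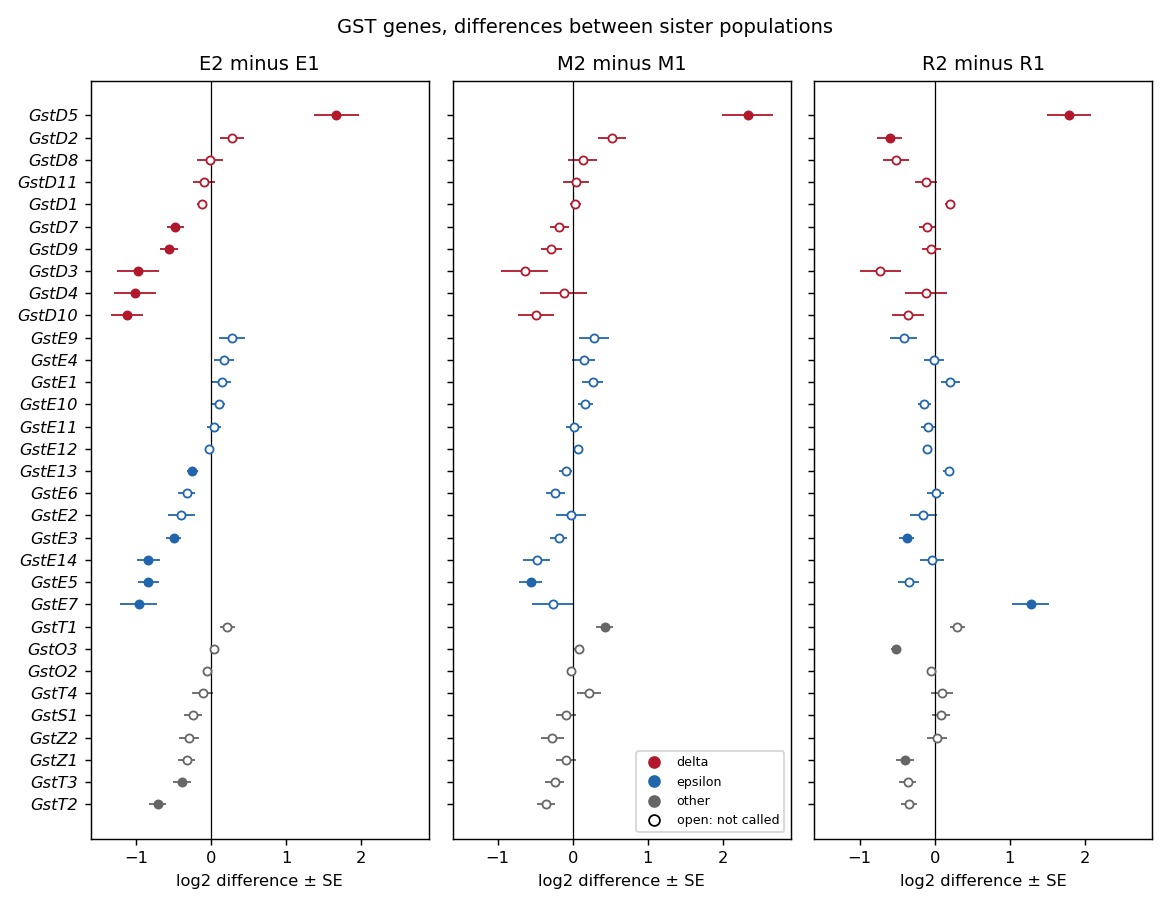
Log2 difference between the 2 populations of each regime (E2 minus E1, M2 minus M1, R2 minus R1) for 32 GST genes, with limma standard errors; filled points passed at an adjusted p under 0.05. GstD5 lies right of 0 in all 3 panels, at 1.67, 2.33 and 1.79, and in the left panel 12 genes passed below 0.

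GstT2 had the smallest p of that comparison. It ranged from 6.09 over a median of 6.48 to 7.34 in E2 and from 7.11 over a median of 7.28 to 7.82 in E1, which overlap. The difference was -0.71 ± 0.11 at limma adjusted p = 9.535e-05. GstE5 ranged from 8.60 over a median of 8.88 to 9.91 in E2 and from 9.56 over a median of 9.90 to 10.13 in E1, and differed by -0.84 ± 0.14 (limma adjusted p = 0.0002504).

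GstE14 ranged from 3.53 to 3.82 in E2 and from 4.16 to 5.16 in E1, without overlap, but E2 lay below the detection level of 4, so the difference of -0.83 is a change toward background. GstD10 and GstE3 were lower in E2, with differences of -1.11 ± 0.21 and -0.50 ± 0.10. GstE7, GstD4 and GstD3 differed by -0.96, -1.01 and -0.97, and GstD9, GstD7, GstT3 and GstE13 by -0.56, -0.47, -0.39 and -0.25. GstE9 and GstT4, the genes with the largest increases after ethanol, were not called between E2 and E1.

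Marker genes were read between these populations too, where 11.0% of all probe sets were called. Of the 10 tested haemocyte genes 1 (10%, near that share) was higher in E2, Hml by 1.23 ± 0.18, and 0 were lower. The haemocyte sum ran from 79.7 to 86.2 in E2 and from 78.2 to 89.2 in E1. Of the 9 tested midgut genes 2 were higher and 2 lower (44.4% called). The midgut sum ran from 99.2 to 106 in E2 and from 100 to 107 in E1. Of the 7 Malpighian tubule genes 1 (14.3%) was higher. Of the 17 pathway genes Cat was the 1 called (5.88%, below that share), lower in E2 at -0.71 ± 0.13. Their part in the GST differences was not tested.

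GstD5 was higher in the population numbered 2 of every regime. It ranged from 2.22 to 6.15 in E2 and from 1.67 to 3.41 in E1, from 3.44 to 5.52 in M2 and from 1.98 to 2.57 in M1, and from 4.72 to 7.07 in R2 and from 2.92 to 5.00 in R1. The variable populations did not overlap, whereas the ethanol and control populations did. The differences were 1.67 ± 0.30, 2.33 ± 0.34 and 1.79 ± 0.30 for E2 minus E1, M2 minus M1 and R2 minus R1. Of all probe sets 0.976% were called with 1 direction in all 3 pairs. GstD5 passed the filter on low values mainly through E2, M2 and R2, and M1 and E1 lay below 4 on every array. These values are therefore a description, given without p-values, its calls are no support for a difference, and the sizes reach into background. GstD5 was not called for exposure (-0.04, 95% interval -0.41 to 0.33), and averaged 4.09, 2.41, 4.54, 2.21, 5.75 and 3.96 in E2, E1, M2, M1, R2 and R1. The regime difference of -1.61 ± 1.05 (ethanol minus control) was not called (limma adjusted p = 0.6646).

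**Figure D5:**
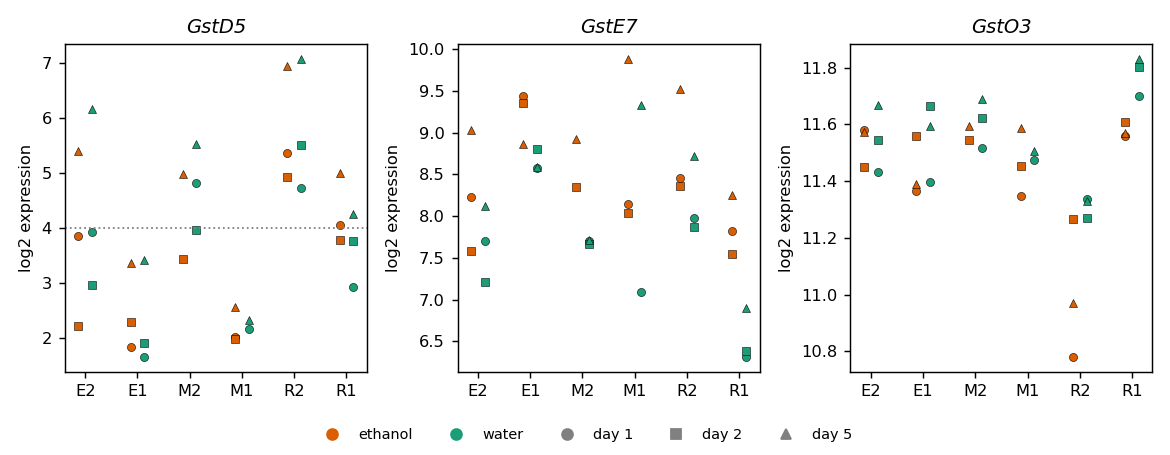
Log2 expression of GstD5, GstE7 and GstO3 on every array by population (ethanol in orange, water in green, extraction day as the symbol); the dotted line marks the detection level of 4. GstD5 is higher in E2, M2 and R2 than in E1, M1 and R1 on average, GstE7 is lowest in R1 with a mean of 7.21, and GstO3 is lowest in R2 with a mean of 11.16.

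Between M2 and M1, 3 genes were called (against 3.67% of all probe sets, 1.98% higher and 1.69% lower), GstD5, GstT1 at 0.42 ± 0.11 and GstE5 at -0.56 ± 0.16. Among probe sets with a mean of at least 6, which leaves GstD5 out, 2 of 28 GST genes were called, 1 in each direction, against 3.22% of all. GstE5 ranged from 8.94 to 9.36 in M2 and from 9.36 to 10.19 in M1. It differed by -0.84 between E2 and E1, as given above, and by -0.35 between R2 and R1 without passing. The call of GstE5 was lost in 11 of 16 settings, among them no filter, centring on medians and no intensity trend, and that of GstT1 in 8 of 16. Without day 2, without day 5 or without R1 the count was 1 (0.935%, 2.53% and 3.28% of all probe sets), GstD5 in the fits without a day. Without day 1 GstD5 alone of the 3 was called (2.65% of all probe sets).

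Between R2 and R1, 6 genes were called, 2 higher and 4 lower in R2, against 8.09% of all probe sets (3.89% higher and 4.20% lower). Among probe sets with a mean of at least 6, which leaves GstD5 out, 5 of 28 GST genes were called. Of these 1 was higher and 4 were lower, against 7.38% of all. GstO3 stood between 10.78 and 11.34 on the 6 arrays of R2 and between 11.56 and 11.83 on the 6 arrays of R1, without overlap, a difference of -0.52 ± 0.06 at limma adjusted p = 7.971e-07. The other 4 populations averaged between 11.47 and 11.59. R2 was thus the population apart for this gene.

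GstE7 ran the other way. On days 1, 2 and 5 it was at 8.45, 8.36 and 9.52 in ethanol-exposed R2 and at 7.83, 7.55 and 8.25 in ethanol-exposed R1. In water-exposed larvae it was at 7.97, 7.87 and 8.72 in R2 and at 6.32, 6.38 and 6.91 in R1. R2 was higher than R1 within each exposure and day, and the difference was 1.28 ± 0.25, or 2.42-fold (limma adjusted p = 0.001013). In the ethanol regime GstE7 differed by -0.96 between E2 and E1, so the number of a population carried no direction for it. R1 had the lowest mean of the 6 populations, 7.21, and also the largest response to ethanol, 1.34, against 0.56 to 0.85 in the others. Without day 5 the response was 1.34 in R1, 1.08 in M1 and 0.44 to 0.75 in the other populations. The M1 response over all days, 0.62, includes the water array of day 5 at 9.33, which stood apart from its group. The difference in response between R2 and R1 was not called for GstE7.

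GstD2, GstZ1 and GstE3 were lower in R2, at -0.60 ± 0.16, -0.40 ± 0.12 and -0.37 ± 0.10. GstE3 was lower in E2 than in E1 as well, as given above. The second probe set of GstO2 differed by 0.50 ± 0.13 between R2 and R1 (limma adjusted p = 0.01859), while its first, with the higher mean, did not pass at -0.05. Without day 1 or without day 2 the count was 3, GstD5, GstE7 and GstO3 in each (3.01% and 3.06% of all probe sets). Without day 5 it was 6 (6.77%), with GstE5 in place of GstZ1.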

How the data were processed

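Expression was measured on Affymetrix arrays from biotin-labelled cDNA of pooled larvae. The authors deposited log2 values, 1 per probe set and array, and the submitters' processing notes name GCRMA and affy, without versions. This method models background from probe sequence, so values near the floor reflect that model.

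Names come from the platform annotation, updated by gene identifier through a RefSeq gene table (13544 of 13647 with 1 gene; 402 list several and 4720 are unlisted). Where a gene has several probe sets, the one of highest mean stands for it. With R 4.3.3 and limma 3.58.1 (lmFit, eBayes with an intensity trend), the means of 12 combinations of population and exposure plus extraction day were fitted to all 34 arrays, for exposure and for pairs of populations. For regimes and interactions each population gave 1 value. Tests were two-sided, with Benjamini-Hochberg adjustment over 9729 probe sets at 0.05, and intervals are 95% from limma's t distribution. Errors after ± are standard errors from limma, or SD where stated. The labels do not tie the arrays of a population to separate cultures, and the p-values then measure the spread between RNA samples, which may be technical. The fits were run on simulated data with known changes, where recovery was required for exposure and for pairs of populations. It was not required for regimes.

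Each block of extraction is called by the number that ends a title, an assumed reading. Deviations of arrays from their group means correlated on average at 0.394, 0.184 and 0.423 within days 1, 2 and 5 and at -0.196 between days, and the labels state 1 sample per population and exposure in each block, so day is a term of every array fit.

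The genes, lists and tests were chosen with earlier results of these data known. Full values were given for the 6 largest increases and decreases among called genes under exposure, and for up to 6 called genes by smallest p, otherwise 2, in other comparisons. GstE5, GstE14, GstE7 and GstE3 between populations, and single-population values, were chosen after their values were seen. Alternatives were filters, no day term, centring, quantile normalization, no trend, single days, arrays as replicates, population differences as replicates, and leaving out days, populations or arrays. The day 5 check, single-gene values without day 5 and the response of sister populations were added after seeing the data. Sequences and coordinates were not used here.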

Additional observations from a re-analysis of the deposited data

Results flagged for a closer look

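Dixon's test was run in 192 groups of 5 or 6 arrays (32 genes in each regime and exposure). In 5 of them (2.6%) a value stood apart from the rest of its group. Chance gives about 5% for independent values of a normal distribution. Each group mixes populations and days, so the shares cannot be compared directly. All 5 are water-exposed arrays. GstD3 stood at 8.32 in M1 on day 5, against 5.76 to 6.47 on the other variable-regime water arrays, and GstE7 stood at 9.33 on that same array, against 7.09 to 7.71. GstE4 stood at 7.16 in E1 on day 5, against 7.37 to 7.49 on the other ethanol-regime water arrays. GstD1 stood at 10.64 in R1 on day 2, against 11.20 to 11.51 on the other control water arrays. GstZ1 stood at 7.17 in M2 on day 2, against 7.87 to 8.14 on the other variable-regime water arrays. Of the 5 values, 3 came from day 5 and 2 from day 2.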

How the results depend on the processing

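Of 2554 values of single GST genes over all settings, 2165 kept direction and side of the threshold, 32 were not called in either fit and changed sign, 342 kept direction but no longer passed, 14 newly passed and 1 called value reversed: GstD4 between E2 and E1 was 0.0622 within day 1 alone (limma adjusted p = 0.9379). The number of GST genes called for exposure was 14 in the fit with no replicate block (extraction day not in the fit). In that fit 22.1% of all probe sets were called, against 31.2% in the main fit. The number of GST genes was 8 within day 1 and 13 within day 5, and 14 to 21 when days, populations or arrays were left out. With no replicate block the counts within the ethanol, variable and control regimes were 0, 1 and 3 (4.15%, 3.44% and 10.6% of all probe sets). Those between E2 and E1, M2 and M1, and R2 and R1 were 2, 0 and 3 (4.63%, 1.75% and 4.06%). In the same order of regimes, within-regime counts were 0, 0 and 0 on day 1 alone, 4 and 2 for the ethanol and variable regimes on day 2, and 4 for the ethanol regime on day 5. Between E2 and E1 the count was 1 on day 1 and 1 on day 5, between M2 and M1 it was 0, 0 and 5 on days 1, 2 and 5, and between R2 and R1 it was 0, 2 and 3. With arrays as replicates 9 genes passed for ethanol against control and 7 for variable against control populations (12.4% and 7.33% of all probe sets). Leaving out a day or population gave 2 to 11, 1 to 6 and 5 to 13 within the ethanol, variable and control regimes, 1 to 15, 1 to 3 and 3 to 9 between E2 and E1, M2 and M1, and R2 and R1, and 0 to 0 for regimes and interactions. Not every single-day count is listed: that for exposure on day 2 and some of those within regimes are left out. The single-day counts and these ranges are given without the share of all probe sets. That share also changed with the setting, so such counts do not describe the GST genes alone. The median exposure change of the delta class was 0.18 when probe sets with a mean under 6 were left out, which drops its low genes, and -0.10 within day 2, and that of the epsilon class 0.0124 within day 2. With samples left out the medians ran from -0.04 to 0.06 (delta), 0.0208 to 0.13 (epsilon) and -0.25 to -0.13 (other classes). A single day has fewer arrays, and other causes of these shifts were not tested. GstD5, GstE14 and GstD4 lie partly at background, which limits their sizes.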
